A study of Mus musculus with 24 samples.

Results

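The 10 genes described here, tied to contraction and to the myofibroblast state, were read out in mouse embryonic stem cells (mESC) and in neural progenitor cells (NPC) that differ in the Huntington's disease gene Htt. The members were Acta2, Tagln, Cnn1, Myl9, Tpm2, Lox, Postn, Fbn1, Ctgf and Cyr61. They were found by gene symbol, and all 10 had a row in both tables, among 17501 genes in mESC and 16024 in NPC. The list is one of names, with no threshold on their values, but it was chosen with earlier results of these data known. Shares of members called are therefore a description beside those of all genes.

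Each cell type had 12 libraries of total RNA, 2 for each of 6 genotypes. These were wild type (WT), a knockout of Htt (KO) and 4 lines heterozygous for a knock-in allele, called Q20, Q50, Q92 and Q111 after the CAG repeats in the mouse Htt gene, also called Hdh. The titles and the growth text give different repeat lengths for the Q92 line, and the title was followed. The stem cells were grown with leukemia inhibitory factor on gelatin and on a feeder layer of irradiated CF-1 mouse embryonic fibroblasts. The progenitors were derived from stem cells in N2B27 medium and kept on laminin with FGF and EGF, a medium that names no feeder layer. The libraries of a genotype are named as separate biological samples, but each knock-in allele is 1 line, so line and repeat length cannot be told apart.

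Acta2 (smooth muscle actin), Tagln (transgelin, an actin-binding protein), Cnn1 (calponin), Myl9 (the regulatory myosin light chain) and Tpm2 (beta-tropomyosin) build the actin and myosin apparatus of smooth muscle. They are also turned on in myofibroblasts, fibroblasts that have taken on contractile features. Several of them are known targets of serum response factor (SRF) and its MRTF partners, which bind a sequence called the CArG box. Lox (lysyl oxidase, which crosslinks collagen and elastin), Postn (periostin) and Fbn1 (fibrillin, the core of microfibrils) belong to the extracellular matrix. Ctgf and Cyr61 encode secreted CCN proteins and are well known targets of YAP with TEAD factors. Cultured fibroblasts, including feeder cells, express many of these genes.

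The promoter sequences of the members with motif matches are shown because SRF or TEAD factors are known to act on several of these genes. Of the 10 members, 7 had a RefSeq promoter (8 entries, GRCm38.p6), and the 250 bases before the start were searched on both strands. The motifs were the CArG box, a CArG box with at most 1 G or C inside (which includes the former), the TEAD word GGAATG and the AP-1 word TGANTCA. Capitals mark the matches. The Acta2 stretches are 26 bases on the minus strand of chromosome 19 and lie in an annotated exon of GENCODE M21. The Myl9 and Cyr61 stretches lie at chr2:156775214-156775419 (plus strand) and chr3:145649986-145650235 (minus strand), upstream of the annotated exons.
Acta2, 84 bases upstream: gctgaggtCCCTATATGGttgtgtta
Acta2, 34 bases upstream: tctttgctCCTTGTTTGGgaagcgag
Acta2, 146 bases upstream: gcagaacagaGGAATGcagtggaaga
Myl9: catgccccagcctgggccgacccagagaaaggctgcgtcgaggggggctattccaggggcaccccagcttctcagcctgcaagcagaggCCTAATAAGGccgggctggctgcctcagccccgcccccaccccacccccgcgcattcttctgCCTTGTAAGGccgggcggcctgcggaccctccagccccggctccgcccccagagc
Cyr61: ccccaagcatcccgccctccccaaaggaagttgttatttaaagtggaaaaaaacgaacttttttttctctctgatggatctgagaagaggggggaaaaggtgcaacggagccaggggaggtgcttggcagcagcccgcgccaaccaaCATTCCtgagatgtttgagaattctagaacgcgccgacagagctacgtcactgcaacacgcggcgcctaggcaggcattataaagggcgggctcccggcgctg

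Acta2 held a pair of relaxed CArG boxes and 1 GGAATG. Myl9 held 1 exact CArG box, 161 bases upstream, and a relaxed one 99 bases upstream. Cyr61 held GGAATG on the other strand, read as CATTCC in the sequence above, 103 bases upstream. Cnn1, Tpm2, Postn and Fbn1 held no match to any of the motifs, and Tagln, Lox and Ctgf had no promoter entry. Over 32851 promoters of the same length, 1.47% held the exact CArG box, 8.59% the relaxed form, 12.6% GGAATG and 6.75% TGANTCA. A match is a stretch of letters, and binding was not measured.

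The libraries held 58546211 to 81502284 reads in mESC and 48525333 to 118038952 in NPC, as recovered from the deposited values. Values below are the deposited normalised CPM, counts scaled per library by the authors. Htt, the check of the labels, was 124 and 113 in the mESC WT libraries, 139 in the library labelled KO 1 and 68.5 in the library labelled KO 2, so the label of KO 1 is not borne out by Htt. In NPC it was 137 and 177 in WT against 100 and 94.9 in KO. Every direction against the libraries labelled KO in mESC rests on that label. Embryonic stem cell markers summed to 1992 to 3772 in mESC, where 7 of the 8 listed genes had a row and 7 were above 1 CPM in the median library. Neural progenitor markers summed to 3943 to 9365 in NPC.

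In mESC, all 10 members had a higher mean in the knock-in lines than in WT and KO, and 7 of them passed the test. The actin gene Acta2 stood apart most, at 51.0 CPM over the 8 knock-in libraries against 2.30 over the 4 WT and KO libraries. Tagln, Cnn1, Myl9, Postn, Ctgf and Cyr61 also rose, while Tpm2, Lox and Fbn1 did not pass without the replicate block. Of all 13916 genes tested, 0.790% were called higher, 0.323% lower and 1.11% in either direction, at a Benjamini-Hochberg adjusted p under 0.05 in limma. The comparison asked whether carrying a knock-in allele, of any length, goes with a different level than in lines with no knock-in allele. Any other difference between the knock-in lines and the WT and KO lines cannot be told apart from the allele.

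**Figure D1:**
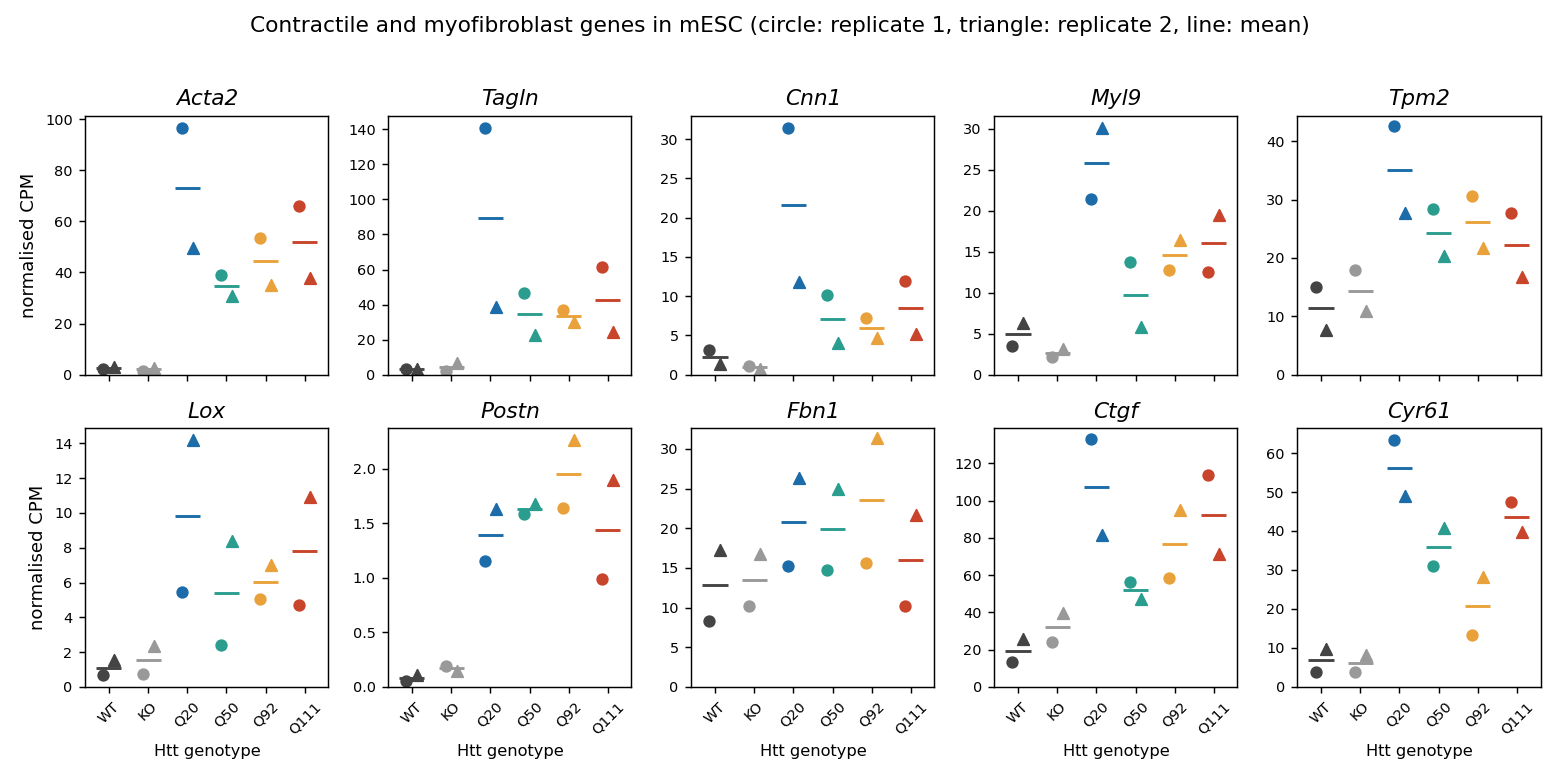
Normalised CPM (vertical axes, from 0) of each member in the 12 mESC libraries by Htt genotype; circles are replicate 1, triangles replicate 2 and lines the mean of both. All 8 knock-in libraries lie above all 4 WT and KO libraries for 7 members; Myl9, Tpm2 and Fbn1 overlap.

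Acta2 was 2.13 and 3.03 CPM in WT, and 1.37 and 2.69 in the libraries labelled KO. It was 96.5 and 49.5 in Q20, 38.9 and 30.6 in Q50, 53.5 and 35.2 in Q92, and 65.9 and 37.7 in Q111. The groups did not overlap: the lowest knock-in library was far above the highest of the others. The ratio of means was 22.1, and the log2 change was 3.91 (SE 0.26, limma adjusted p 0.000862). Acta2 was the only member called in all 36 alternatives run, with adjusted p from 0.00024 to 0.00853.

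Tagln was 3.07 and 3.47 CPM in WT and 2.33 and 6.78 in the libraries labelled KO. In the knock-in lines it was 141 and 38.6 (Q20), 46.5 and 22.8 (Q50), 37.1 and 30.0 (Q92), and 61.5 and 24.1 (Q111). Q20 replicate 1 was the highest library by a wide margin, and even the lowest knock-in library was above every WT and KO library. The log2 change was 3.21 (SE 0.42, limma adjusted p 0.0138).

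Calponin, Cnn1, ran from 4.04 to 31.4 CPM in the knock-in libraries (median 8.65) and from 0.743 to 3.15 in WT and KO. The highest was again Q20 replicate 1, and the groups did not overlap. Its log2 change was 1.99 (SE 0.36, limma adjusted p 0.0430). Myl9 ran from 5.76 to 30.1 CPM (median 15.1) against 2.16 to 6.34, and Q50 replicate 2 was below WT replicate 2. Its log2 change was 1.83 (SE 0.27, adjusted p 0.0227).

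Tpm2 was the least changed contractile member, at 16.8 to 42.6 CPM in the knock-in libraries and 7.67 to 18.0 in the others. Only Q111 replicate 2 (16.8) lay below a library of the other groups, the library labelled KO 1 (18.0). The log2 change was 1.03 (SE 0.26), with a limma adjusted p of 0.107, and of 0.00232 with the replicate number as a block. Within each replicate number every knock-in library was above WT and KO.

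Among the matrix genes, Lox ran from 2.43 to 14.2 CPM in the knock-in libraries (median 6.23) and from 0.659 to 2.32 in WT and KO, with no overlap. The margin was narrow, since Q50 replicate 1 was only just above the library labelled KO 2. Its log2 change was 1.77 (SE 0.39, limma adjusted p 0.0734, 0.00223 with the block).

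Postn was scarce in every mESC library, from 3 to 148 recovered reads. It was 0.0494 and 0.106 CPM in WT, 0.192 and 0.146 in the libraries labelled KO, and 0.991 to 2.26 in the knock-in lines. The groups did not overlap, and the log2 change of 1.20 (SE 0.15, limma adjusted p 0.0118) understates the ratio of means of 13.0 because 1 was added before taking logs.

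Fbn1 differed least, at 10.2 to 31.4 CPM in the knock-in libraries (median 18.6) and 8.27 to 17.3 in WT and KO, with wide overlap. Its log2 change was 0.55 (SE 0.33, limma adjusted p 0.499, 0.0129 with the block). Q111 replicate 1, at 10.2 CPM, was just below the library labelled KO 1, at 10.3 CPM.

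The CCN genes both rose. Ctgf was 13.5 and 25.5 CPM in WT and 23.9 and 39.9 in the libraries labelled KO. It was 133 and 81.3 in Q20, 56.6 and 47.3 in Q50, 58.7 and 95.1 in Q92, and 114 and 71.2 in Q111. The groups did not overlap, and the log2 change was 1.65 (SE 0.26, limma adjusted p 0.0271).

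Cyr61 was 3.86 and 9.70 CPM in WT and 3.93 and 8.23 in the libraries labelled KO. It was 63.4 and 48.9 in Q20, 30.9 and 40.7 in Q50, 13.2 and 28.2 in Q92, and 47.5 and 39.8 in Q111. Every knock-in library was above every other, with Q92 replicate 1 the nearest. The log2 change was 2.41 (SE 0.30, limma adjusted p 0.0118).

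Over the 10 members the median log2 change was 1.796, against -0.03 over all genes tested. For 7 of 10 members all 8 knock-in libraries were above all 4 others, as for 2.07% of all genes tested. Within both replicate numbers that held for 8 of 10, against 4.69% of all genes. The direction was the same, higher in the knock-in lines, for each of the 10 members in all 36 alternatives. These reuse the same libraries, and some were added after seeing the data, so they are not independent support.

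The count of calls was less stable than the direction. Leaving out the library labelled KO 1 or WT replicate 1 left 1 member called, WT replicate 2 left 2, the library labelled KO 2 left 3 and Q92 replicate 2 left 4. Calls over all genes fell as well, from 155 to 15, 24, 21, 42 and 50 in the same order. With WT alone as the reference 1 was called (17 over all genes) and with KO alone 2 (45 over all genes). With 1 mean value per line 3 members were called (36 over all genes). Replicate numbers paired the mESC libraries, and with the replicate number as a block all 10 were called higher, where 7.68% of all genes were called higher and 7.56% lower, 15.2% in all. With the block, leaving out 1 library left 9 or 10 called (952 to 1788 over all genes), WT alone gave 10 (1169 over all genes) and KO alone 8 (970 over all genes). These runs, which join the block to another change, were added after seeing the data.

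**Figure D2:**
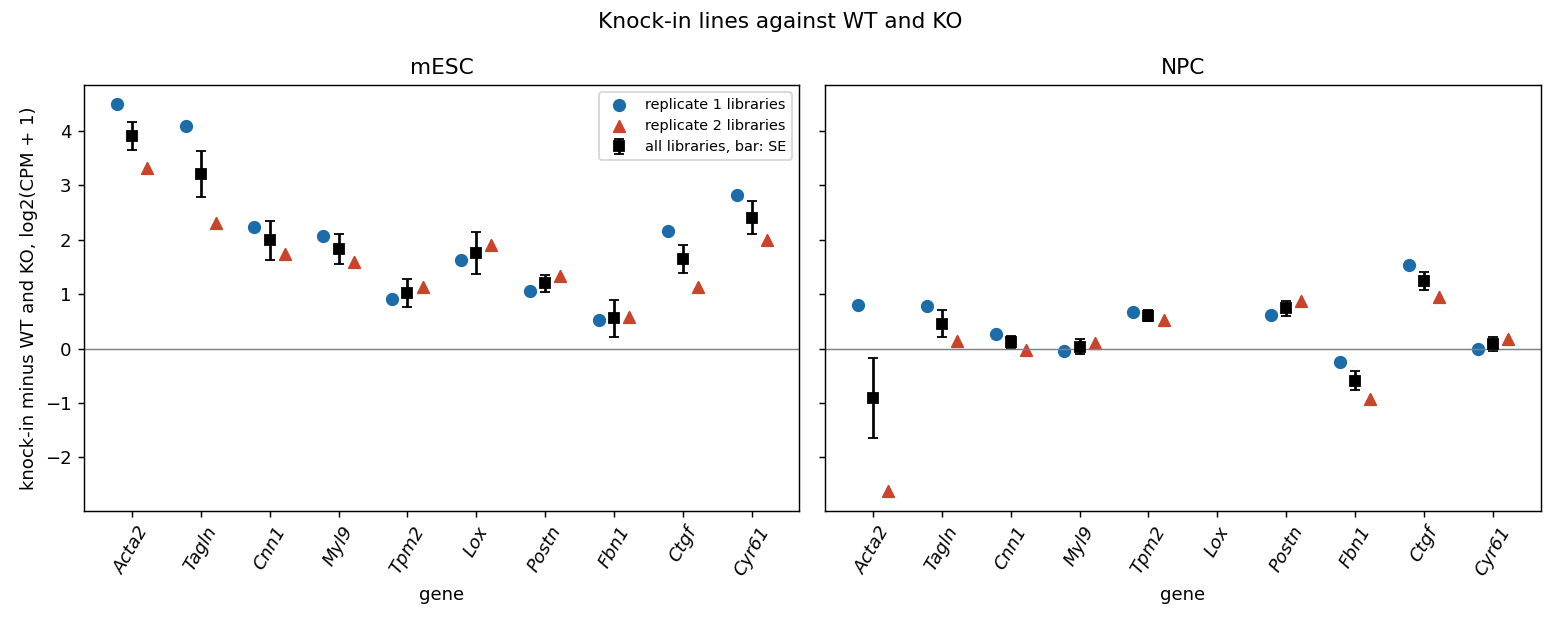
Knock-in minus WT and KO on the log2(CPM + 1) scale for each member (horizontal axis) in mESC (left) and NPC (right); squares are the fitted change with its SE, circles and triangles the change within replicate 1 and replicate 2 libraries. All mESC points lie above 0, from 0.55 to 3.91 for the fitted change, while in NPC Acta2 has opposite signs within the replicate numbers; Lox was not tested in NPC.

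Levels also differed by replicate number. Acta2, Tagln, Cnn1 and Tpm2 were higher in replicate 1 than in replicate 2 of all 4 knock-in lines, and Lox, Postn and Fbn1 were lower in replicate 1 of all 4. The difference between replicates thus ran one way for most contractile genes and the other way for the matrix genes. The median change over the members was 2.12 within replicate 1 and 1.67 within replicate 2.

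Q20 had the highest mean of the 6 genotypes for 8 of the 10 members, and Q92 for Postn and Fbn1. Most neighbours in these orders overlapped. Q20 was clear of the next genotype, Q111, for Myl9 and Cyr61 alone. No member was called in the F test among the 4 knock-in lines with limma, and none had an unadjusted p under 0.05 (0.0719% of all genes were called). edgeR called none without the block (10 over all genes), and with it called Cnn1 alone (adjusted p 0.0495, with 162 called over all genes).

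KO and WT gave no call among the 10 members in limma or edgeR, and none had an unadjusted p under 0.05 in limma; 0.0144% of all genes were called. The Acta2 mean of WT was 2.58 ± 0.637 CPM (SD, n = 2), and that of KO was 2.03 ± 0.933 (SD, n = 2). For Ctgf it was 19.5 ± 8.43 CPM in WT against 31.9 ± 11.3 in KO (SD, n = 2 each).

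Per kilobase of exon, levels of different genes can be set side by side. In WT Ctgf was 4.73 and 8.90 CPM per kb, beside 2.99 and 5.45 for Myl9, 5.18 and 2.64 for Tpm2 and 0.968 and 1.38 for Acta2. In Q20 Ctgf was 46.4 and 28.4 CPM per kb, Acta2 43.9 and 22.6, and Tagln 70.7 and 19.4. The order of the genes differed between replicates: Tagln was the highest member in Q20 replicate 1 and below Ctgf, Myl9, Cyr61 and Acta2 in replicate 2. Fbn1 stayed low, at 0.682 and 1.43 CPM per kb in WT and 1.26 and 2.17 in Q20.

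Some fibroblast markers, 2 of 10 tested, were also higher in the knock-in lines. Of 14 listed markers 11 had a row in mESC and their sum was 61.4 to 87.7 CPM in the knock-in libraries against 22.7 to 45.8 in WT and KO. These 2 were Col1a1 and Col1a2, the chains of type I collagen, called in limma. Col1a1 was 7.59 to 17.6 CPM against 0.494 to 1.21, and Col1a2 was 17.5 to 31.4 against 0.808 to 2.60. Both collagens showed no overlap between the groups.

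The other fibroblast markers did not pass without the block; with it 6 of the 10 were called higher and 1, Pdgfra, lower. Thy1 was 4.37 to 12.3 CPM in the knock-in libraries and 3.66 to 11.3 in the others, Twist1 0.473 to 4.83 and 1.46 to 2.62, and Pdgfra 4.08 to 10.5 and 7.72 to 28.0. Col3a1 was 2.32 to 13.6 against 0 to 2.72, and it was at 0 in WT replicate 1. The markers Lum, Fap and Dpt had no row. The part of feeder fibroblasts in the higher levels was not tested, and in bulk RNA fewer cells of a type and less RNA per cell cannot be told apart. Of 5 tested smooth muscle and pericyte markers none was called in limma or edgeR, 3 had an unadjusted p under 0.05, and 2 were higher and 1 lower with the block, with a sum of 41.5 to 153 CPM against 46.5 to 126. Embryonic stem cell markers summed to 1992 to 3382 CPM in the knock-in libraries and 3138 to 3772 in WT and KO, and with the block 3 of 7 were lower.

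**Figure D3:**
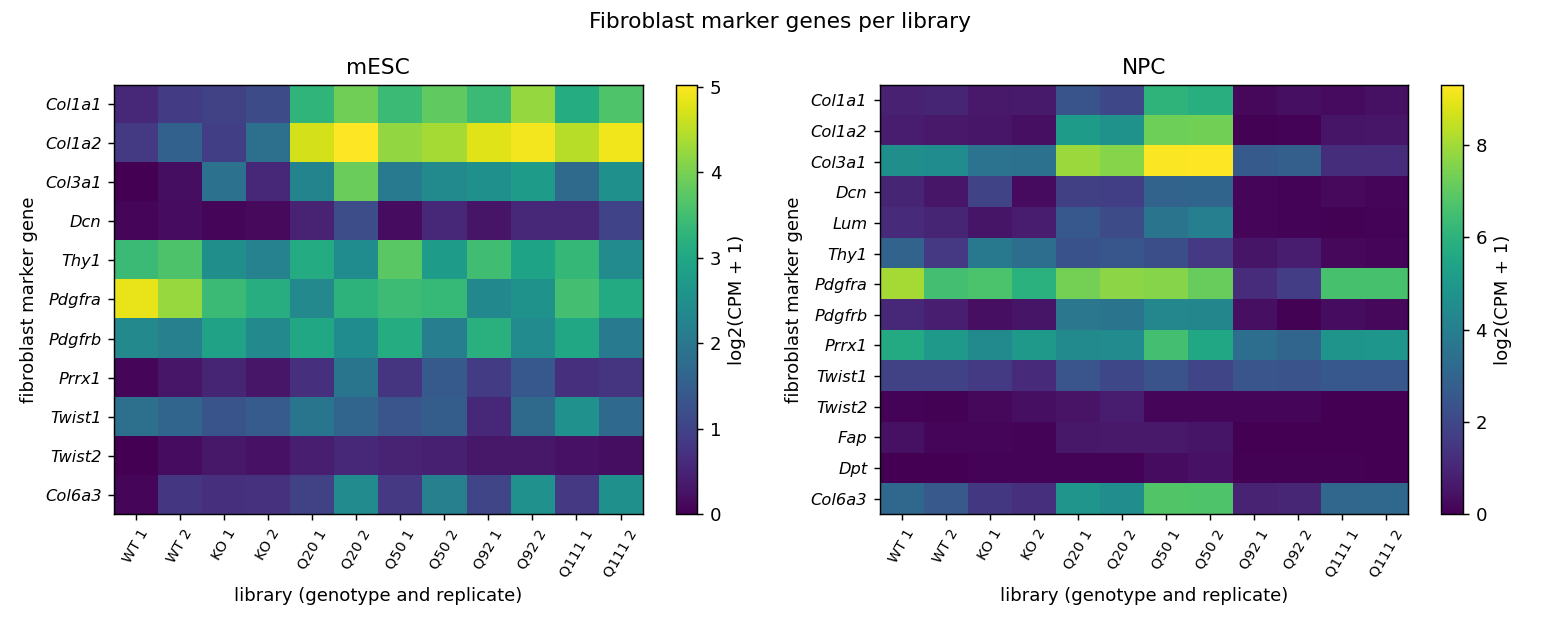
Fibroblast marker genes (rows) in each library (columns, genotype and replicate) of mESC (left) and NPC (right), coloured by log2(CPM + 1) on a separate scale per panel. In mESC Col1a1 and Col1a2 are low in the 4 WT and KO libraries and higher in the 8 knock-in libraries; in NPC Q50 and then Q20 hold the highest collagen values.

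The wider gene families gave few calls in mESC without the replicate block. None of 16 other smooth muscle contractile genes was called in limma or edgeR, and 7 had an unadjusted p under 0.05; their median log2 change was 0.26. With the block 7 were higher and 1, Des (desmin), lower; one of them was Tpm1, another tropomyosin, named after its value was seen (log2 change 1.38, adjusted p 0.00232 with the block). Of 7 tested SRF and MRTF regulators none was called by either tool, 2 had an unadjusted p under 0.05, and the median was 0.14. The block gave 1 higher (Fhl2) and 1 lower (Elk3), both named after their values were seen. Of 17 TGF-beta pathway genes 1 was higher, Tgfb3 (log2 change 0.91, adjusted p 0.0316), a TGF-beta ligand named after its value was seen; with the block 5 were higher and 2 lower. Of 13 YAP and TEAD pathway genes 2 rose, Ankrd1 and Axl, and with the block 4 were higher and 1 lower. Ankrd1, a known YAP target, was 3.90 to 10.6 CPM in the knock-in libraries and 0.357 to 1.01 in the others (log2 change 2.31, adjusted p 0.00743). Axl, a receptor tyrosine kinase, was 11.3 to 18.9 CPM against 2.73 to 4.22 (log2 change 1.83, adjusted p 0.00291).

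Of 12 tested elastic fibre and crosslinking genes 1 rose, Fbln2, a fibulin, from 4.44 to 7.76 CPM in WT and KO to 21.8 to 60.6 (log2 change 2.40, adjusted p 0.00934); with the block 5 were higher. Of the 2 tested genes in the rest of the CCN family Wisp1 was higher (log2 change 1.27, adjusted p 0.0263), also named after its value was seen.

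The 3 genes whose mESC pattern was most like the mean of the members, by Pearson correlation over 12 libraries among 10434 genes searched, were Thbs1 (0.991), Col5a2 (0.981) and Col1a2 (0.977). Thbs1, the matricellular protein thrombospondin, was 103 to 260 CPM in the knock-in libraries and 8.29 to 15.7 in the others. Col5a2, a chain of type V collagen, was 16.4 to 39.4 CPM against 1.61 to 3.26. These points share their libraries and their scaling with the members.

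In NPC the members split by line, with no common knock-in pattern. Q20 held the highest level of Cnn1, Myl9, Tpm2 and Ctgf, Q50 that of Tagln, Postn, Lox and Cyr61, and KO that of Fbn1 and, through 1 library, Acta2. Of the 9 members that passed the filter on low values, 8 differed among the 6 genotypes in limma's F test, where 38.0% of all 13206 genes were called. Lox did not pass the filter, at 0 to 1.09 CPM. Its reads numbered 0 to 62 per library.

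**Figure D4:**
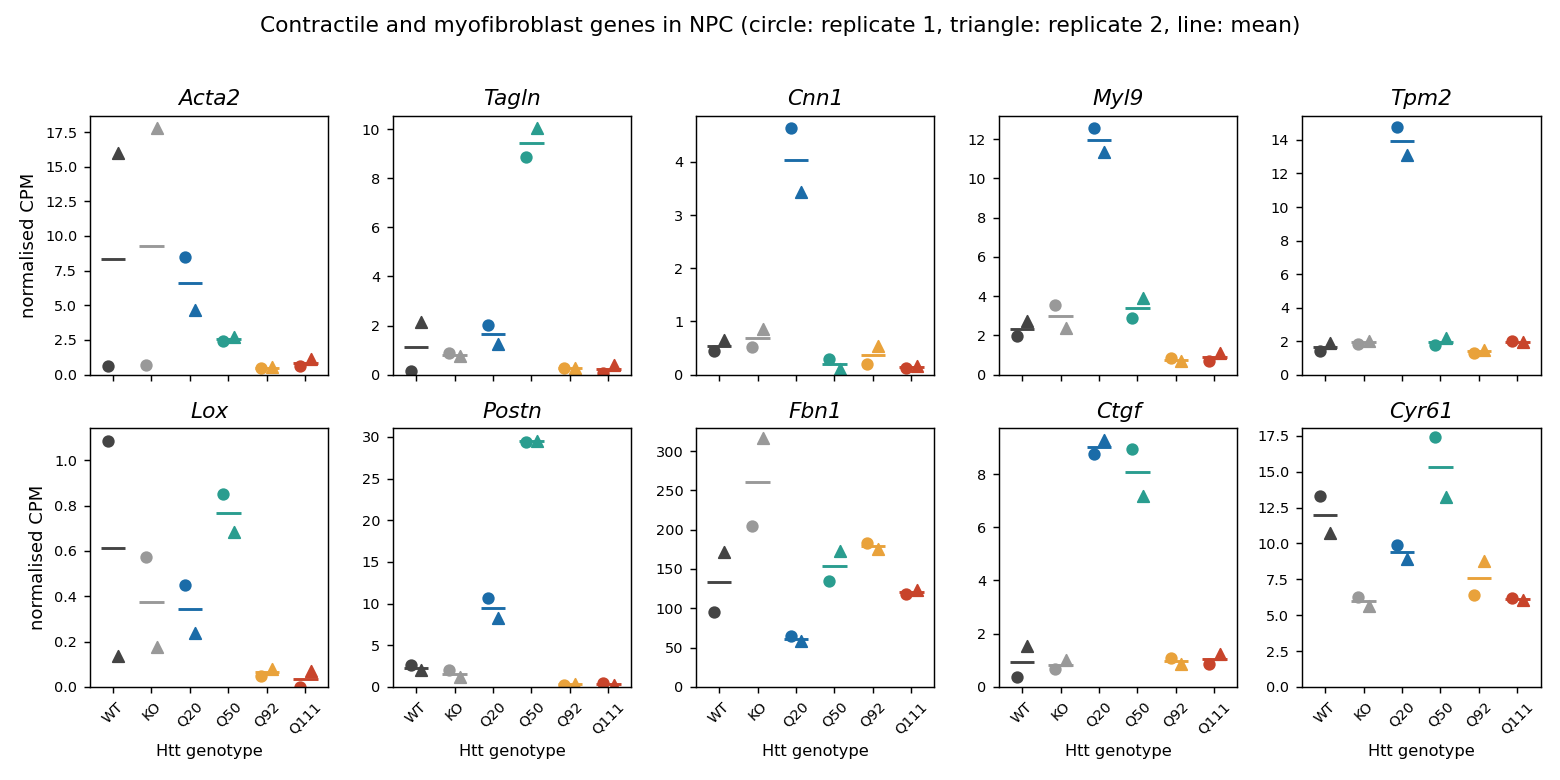
Normalised CPM (vertical axes, from 0) of each member in the 12 NPC libraries by Htt genotype; circles are replicate 1, triangles replicate 2 and lines the mean of both. Cnn1, Myl9 and Tpm2 are highest in Q20, Tagln and Postn in Q50 (29.3 and 29.5 CPM for Postn), Ctgf is high in both lines, and Acta2 splits by replicate in WT and KO.

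Tpm2 was 14.7 and 13.1 CPM in the Q20 libraries and 1.29 to 2.19 in the other 10. Cnn1 was 4.63 and 3.44 in Q20 and 0.106 to 0.856 elsewhere, and Myl9 was 12.6 and 11.3 against 0.677 to 3.90. For these 3 genes both Q20 libraries were clear of every other library. Against WT the log2 changes were 2.51 (SE 0.16, limma adjusted p 2.34e-05) for Tpm2, 1.70 (SE 0.19, adjusted p 0.00045) for Cnn1 and 1.97 (SE 0.22, adjusted p 0.000527) for Myl9.

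Postn was 29.3 and 29.5 CPM in Q50 and 10.7 and 8.23 in Q20. It was 2.61 and 2.03 in WT, 1.97 and 1.14 in KO, 0.198 and 0.391 in Q92, and 0.474 and 0.184 in Q111. The order from Q92 and Q111 up to Q50 had no overlap between neighbours except for Q92 with Q111. The means of Q50 and Q92 were 100.0-fold apart, a ratio that rests on 12 and 25 reads in the Q92 libraries.

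Tagln was 8.88 and 10.03 CPM in Q50 and 0.0812 to 2.12 in the other libraries. The libraries of WT (0.158 and 2.12) differed by more than those of any other genotype relative to their mean. Ctgf was 8.77 and 9.27 in Q20 and 8.95 and 7.17 in Q50, against 0.368 to 1.53 in the other 8 libraries. The levels of Q20 and Q50 overlapped for Ctgf, and their log2 difference was -0.15 (95% interval -0.79 to 0.49, limma adjusted p 0.768).

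Fbn1 was measured well in every NPC library, at 95.1 and 172 CPM in WT, 205 and 316 in KO, 64.1 and 58.2 in Q20, 134 and 173 in Q50, 184 and 176 in Q92, and 118 and 124 in Q111. Q20 was the lowest genotype, clear of all others. Cyr61 ranged least, from 5.67 to 17.4 CPM, with Q50 (17.4 and 13.3) and WT (13.3 and 10.7) highest.

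Acta2 was split by replicate and was not called (limma adjusted p 0.456). It was 0.648 in WT replicate 1 and 16.0 in WT replicate 2, and 0.729 and 17.8 in KO. The knock-in libraries were less divided, at 8.46 and 4.69 in Q20, 2.40 and 2.73 in Q50, 0.446 and 0.563 in Q92, and 0.623 and 1.12 in Q111. In the same WT libraries the astrocyte markers summed to 717 and 168 CPM, and in those of KO to 249 and 68.1. The fibroblast sums were also lower in replicate 2 (361 and 156 in WT, 154 and 116 in KO). So were the smooth muscle and pericyte sums (194 and 92.4 in WT, 112 and 70.3 in KO). The embryonic stem cell, endoderm and mesoderm sums were higher in replicate 2 of WT and lower in that of KO. Over the knock-in lines the astrocyte sum was 1058 and 940 in Q20 and 22.1 and 28.1 in Q92, the lines highest and lowest in Acta2. A link was not tested.

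Q20 against WT called 6 of 9 members in limma, 5 higher (Tpm2, Ctgf, Myl9, Cnn1 and Postn) and 1 lower (Fbn1, log2 change -1.05, adjusted p 0.0464), where 14.5% of all genes were called, 9.97% higher and 4.57% lower. A fit to only the libraries of Q20 and WT gave 3 calls, and 476 over all genes. KO against WT called 0 of 9 in limma and 0 in edgeR, with 2 at an unadjusted p under 0.05 in limma, where 1.42% of all genes were called (0.878% higher, 0.545% lower). Without WT replicate 2 only 1 WT library is left, and there the log2 change was 1.41 for Fbn1 and -1.04 for Cyr61. With all libraries these changes were 0.99 and -0.90.

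The next comparisons share the Q20 libraries, so their values stand side by side only. Q50 against Q20 called 6 of 9 members (18.8% of all genes; 8.05% higher, 10.7% lower): Tagln (log2 change 2.00), Postn (1.55) and Fbn1 (1.30) were higher, and Cnn1 (-2.07), Myl9 (-1.57) and Tpm2 (-2.33) lower. edgeR called 4 of these, without Tagln (adjusted p 0.133) and Postn (adjusted p 0.0501). In Q92 against Q20 Fbn1 (1.54) was higher and 5 were lower, among them Postn (-3.01) and Tpm2 (-2.64), where 25.8% of all genes were called (9.88% higher, 15.9% lower).

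Q111 against Q20 gave the same 6 members in the same directions: Fbn1 (0.97) was higher, and Cnn1 (-2.14), Myl9 (-2.78), Tpm2 (-2.33), Postn (-2.98) and Ctgf (-2.30) were lower. Here 28.3% of all genes were called, 12.2% higher and 16.1% lower. The median over the 9 members was -2.14, against 0.03 over all genes. Acta2, Tagln and Cyr61 did not pass in either comparison with the 6 groups in the fit. With only the libraries of both groups 9 members were called for Q111 and 8 for Q92, all but Cyr61, where 6712 and 6160 of all genes were called.

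Pooled over the 4 lines, the knock-in libraries of NPC were higher than WT and KO for 3 of 9 members in limma, Ctgf (log2 change 1.24, adjusted p 0.00227), Tpm2 (0.60, adjusted p 0.00513) and Postn (0.74, adjusted p 0.00946), where 7.65% of all genes were called higher, 5.47% lower and 13.1% in either direction. No member had all 8 knock-in libraries above the 4 others, as 0.901% of all genes did. With 1 mean value per line limma called no member and none of all 13206 genes, of which 439 had an unadjusted p under 0.05. For Ctgf and Postn the Q20 and Q50 libraries were the high ones, for Tpm2 those of Q20, and the Q92 and Q111 libraries lay between 0.184 and 2.00 CPM.

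Markers of other cell types differed among the NPC lines as well. All 11 tested fibroblast markers were called in the F test, and their sum was 1182 and 1265 CPM in the Q50 libraries, 494 and 516 in Q20, 156 and 361 in WT, 116 and 154 in KO, 138 and 141 in Q111 and about 22 in Q92. Fap, Dpt and Twist2 were at 0 in some libraries. Embryonic stem cell markers summed to 106 and 108 in Q20 and to 4.72 to 26.5 elsewhere, and astrocyte markers to 940 and 1058 in Q20 and to 22.1 and 28.1 in Q92. The smooth muscle and pericyte sum was 166 and 161 in Q20, 189 and 161 in Q50, and 194 and 92.4 in WT. Their part in the levels of the members was not tested.

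Counts of the wider families in NPC stand beside the 38.0% of all genes called among the 6 genotypes and the 28.3% called in Q111 against Q20. Of 15 tested contractile genes 9 differed among the genotypes, and in Q111 against Q20 8 were lower and 1 higher. Des was 11.05 and 8.66 CPM in Q20 and at most 0.423 elsewhere, and Myh11 (smooth muscle myosin) was 9.96 and 8.37 in Q20 and 0.487 and 0.255 in Q111. Mylk (myosin light chain kinase) went the other way, from 9.06 and 8.86 in Q20 to 81.5 and 81.8 in Q111 (log2 change 3.05, limma adjusted p 0.0029). The contractile genes of the Q20 line thus did not all stand high.

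Among the SRF and MRTF regulators 3 of 7 differed among the genotypes, near the 38.0% of all genes, with Mkl2, an MRTF, highest in Q92 (103 and 84.3 CPM) and Elk4, an SRF partner, lowest in Q20 (23.5 and 32.5). For the TGF-beta pathway 9 of 15 differed, and in Q111 against Q20 5 were lower and 2 higher. Tgfbi, a TGF-beta induced matrix protein, was 6.83 and 4.97 in Q20 and 0.569 and 0.439 in Q111. Smad7, an inhibitor of the pathway, was 8.67 and 9.06 in Q20 and 2.17 and 1.67 in Q111, and Tgfb2, a ligand, was highest in Q20 (44.7 and 49.9) and lowest in Q92 (13.3 and 4.75). Smad3, a signal transducer, had a log2 change of -1.45 in Q111 against Q20.

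For the YAP and TEAD pathway 4 of 12 differed, near the 38.0% of all genes, and 4 were higher and 1 lower in Q111 against Q20, where 28.3% of all genes were called. Vgll3, a TEAD cofactor, was 4.91 and 6.15 CPM in Q111 and at most 0.911 in the other genotypes, and Amotl1, a YAP-binding protein, was lowest in Q20 (162 and 154). Axl was highest in WT (97.0 and 56.5). Tead1 (log2 change 1.09) was higher and Tead3 (-0.98) lower in Q111 against Q20.

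For the elastic fibre genes 9 of 12 differed, with 2 higher and 4 lower in Q111 against Q20. Eln (elastin) was 30.0 and 21.8 CPM in WT and 3.07 and 2.41 in Q111. Mfap2, a microfibril protein, was highest in Q20 (33.0 and 24.4), Fbln2 in Q111 (452 and 443), and Fn1 (fibronectin) had a log2 change of 1.15 in Q111 against Q20. In the CCN family the tested gene, Wisp1, differed among the genotypes (adjusted p 0.00757) and was highest in KO (4.44 and 6.56).

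The genes most like the mean of the 9 members in NPC, among 10563 searched over 12 libraries, were Lhpp (0.934), Pls3 (0.933) and Pfkm (0.918). Lhpp was 6.06 to 18.7 CPM and Pls3, an actin-bundling protein, 85.8 to 154.

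The knock-in effect itself was compared between the cell types, as the difference of the 2 changes in 1 model over the genes tested in both. It was lower in NPC than in mESC for 5 of 9 members: Acta2, Tagln, Cnn1, Myl9 and Cyr61, where 1.63% of the 12321 genes were lower, 1.64% higher and 3.27% were called in either direction. The difference was -4.82 (SE 0.82, limma adjusted p 0.00367) for Acta2 and -2.32 (SE 0.34, adjusted p 0.00114) for Cyr61. With the replicate block Fbn1 was called too (-1.15, limma adjusted p 0.00167, and 0.152 without it). There 1152 of all 12321 genes were called, against 403 without the block. That block also paired the NPC libraries, which were not taken as paired. For Tpm2 it was -0.42 (SE 0.29, adjusted p 0.601) and for Ctgf -0.41 (SE 0.34, adjusted p 0.675). The tables were scaled separately, so levels were not compared across them.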

How the data were processed

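RNA was sequenced in 24 libraries, paired-end on a NextSeq 500 per the labels' protocols. CASAVA 1.8, STAR and the build GRCm38.p6 are named in the submitters' processing notes; the tool that counted reads and whether it used strand are not given in the sources used here. The authors deposited 1 table per cell type with a normalised CPM signal whose column totals ran from 900342 to 1080734. Each table was scaled on its own. In all columns 100% of values were whole multiples of 1 step (tolerance 0.05), which gave back the reads.

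Genes with a value of at least 1 in at least 2 libraries were tested, 13916 in mESC and 13206 in NPC, 12321 in both. For repeated identifiers the first entry was kept, which dropped 4 entries in mESC and 1 in NPC. limma 3.58.1 (R 4.3.3, variance trend) was fitted to log2(CPM + 1) with a mean for each of 6 genotypes, and knock-in against WT and KO contrasted the mean of the 4 lines with that of WT and KO. Adjusted p is Benjamini-Hochberg over all genes tested, two-sided, called under 0.05. edgeR 4.0.16 on the recovered reads, chosen after seeing the data, called 145 genes in mESC for knock-in against WT and KO, and 7 members. The scripts were tested on simulated data.

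Replicate numbers of the labels were taken to pair the mESC libraries: the differences between replicates 1 and 2 correlated between genotypes in all 15 pairs, from 0.25 to 0.547. In NPC 3 of 15 pairs were over 0.1, and they were not taken as paired. P-values measure the spread between these libraries.

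The members, lists and comparisons were chosen with earlier results of these data known. All members were named. From each family, up to 3 called genes with the largest change and a mean of at least 5 in the higher group were named per comparison, and per cell type the 3 genes most correlated with the members. Alternatives changed the pseudocount (0.1), the filter, the scaling, the replicate block, the reference and the libraries. Those that joined the block to a left-out library or to another reference were added after seeing the data.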

Additional observations from a re-analysis of the deposited data

Results flagged for a closer look

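For 5 members the knock-in effect on the log2(CPM + 1) scale differed between NPC and mESC by a test of the difference itself, and each is lower in NPC. The difference was -4.82 for Acta2 (limma adjusted p 0.00367), -2.75 for Tagln (0.00793), -1.87 for Cnn1 (0.0161), -1.79 for Myl9 (0.00436) and -2.32 for Cyr61 (0.00114). In mESC the changes of these genes were 3.91, 3.21, 1.99, 1.83 and 2.41, and in NPC -0.91, 0.46, 0.12, 0.03 and 0.08. The NPC values are means over knock-in lines, which differed for Cnn1 and Myl9. Q20 against WT had log2 changes of 1.70 for Cnn1 and 1.97 for Myl9, and Q92 and Q111 lay below Q20 for both. For Acta2 in NPC, the libraries WT replicate 2 and KO replicate 2 held the high values, 16.0 and 17.8 CPM. The culture on feeder fibroblasts, named for the stem cells alone, cannot be told apart from the cell type.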

How the results depend on the processing

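Leaving out each library in turn moved the number of members called from 7 to between 1 and 6 for the mESC knock-in lines. The ranges in NPC were 0 to 2 for KO against WT, 5 to 6 for Q20 against WT, 4 to 6 for Q50, 6 to 7 for Q92 and 5 to 7 for Q111 against Q20, 7 to 8 among the genotypes and 3 to 4 for the knock-in lines. For the difference between the cell types the range was 4 to 5. In mESC, 1 mean value per line called 3 members, WT alone as the reference 1 and KO alone 2 (36, 17 and 45 over all genes). The same setting of 1 mean per line called 0 in NPC (0 over all genes), and Q20 against WT with only the libraries of both groups called 3 (476 over all genes). That setting gained calls elsewhere, to 8 for Q92 and 9 for Q111 against Q20, from 6 each. The cause of these changes was not tested.

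With the replicate block the mESC knock-in lines gave 10 calls of 10 in limma and 10 in edgeR (2121 and 2107 over all genes). Among the mESC knock-in lines edgeR with the block called 1 member (162 over all genes). The block, which the NPC libraries did not meet as a pairing, gave 0 for NPC KO against WT and 6 for Q20 against WT, as without it. Reversed directions all belonged to changes that were not called. In NPC Q20 against WT Acta2 was -1.21 without WT replicate 1, in a range up to 2.15 (without WT replicate 2), and -0.34 with edgeR. There Tagln was -0.26 without WT replicate 1, in a range up to 1.18, and -0.042 with quantile normalization. Cyr61 in Q92 against Q20 was 0.058 with quantile normalization. The difference for Ctgf was 0.083 with a pseudocount of 0.1, 0.036 in edgeR, and 0.079 once the block was added to edgeR; the cause was not tested. Of the other values for single members, 1376 kept their direction and side of the threshold, 84 lost the call and 62 gained one. Low reads limit Postn in mESC (3 in its lowest library) and, in NPC, Lox (0), Tagln (6), Cnn1 (9) and Postn (12).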

Other observations

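Among the marker lists, 2 further genes rose in the mESC knock-in lines. Actc1, the cardiac actin, was 2.15 to 14.7 CPM in the knock-in libraries and 0.124 to 0.379 in WT and KO (log2 change 2.35, limma adjusted p 0.0104), and it was the 1 called gene of 3 tested cardiac and skeletal muscle markers. Nes, which encodes the intermediate filament nestin, was the 1 called gene of 7 tested neural progenitor markers (log2 change 2.27, adjusted p 0.0189). In WT it was 8.42 and 21.2 CPM and in the libraries labelled KO 10.1 and 26.04, and its mean over the knock-in libraries was 82.9.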
